A study of Mus musculus with 6 samples.

Results

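Cadherins are cell-surface proteins that hold neighbouring cells together through calcium-dependent contacts, and protocadherins are their relatives with a different cytoplasmic tail. The members were all loci of the gene count table whose name holds a symbol made of Cdh and digits or a symbol that starts with Pcdh. There were 56 such loci among 51499, and they carried 91 symbols. They fell into 17 classical cadherins, 5 other Cdh genes, 22 loci of the clustered protocadherins and 12 non-clustered protocadherins. The merged entries matter for reading the clustered genes. A locus of 38 symbols holds 13 Pcdha genes, 22 Pcdhg genes and 3 predicted genes together, and Pcdhb21 and Pcdhb22 share a locus. Cdh15 was not analysed here.

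Poly(A) RNA was sequenced from SV40-immortalized mouse embryonic fibroblasts (MEFs), with 3 cultures that kept the floxed gene (WT, genotype Yme1l fl/fl) and 3 cultures that lack it (Yme1l-/-). Yme1l encodes a protease of the mitochondrial inner membrane. Both genotypes come from primary MEFs of floxed mice that received SV40 large T antigen, and Cre was delivered before clones were grown out and genotyped. Neither the number of clones nor their passage is given in the sources used here, so a difference between clones cannot be told apart from a difference between genotypes. The data are of bulk cultures, in which fewer cells of a type and less RNA per cell cannot be told apart. Nothing beyond the numbering separates the cultures of a genotype, so the p-values measure the spread between these cultures.

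The libraries held 33180867 to 34012520 counts in WT and 34624075 to 49351107 in Yme1l-/- MEFs. As a check of the labels, Yme1l1 stood at 6327, 6292 and 5968 counts in WT and at 1327, 1963 and 2067 in Yme1l-/- MEFs. Levels are given below as CPM, the counts of a locus per 1000000 counts of its library after scaling, and a locus was called when its adjusted p in edgeR's quasi-likelihood test was under 0.05. Over all loci tested 67.7% were called, 33.6% higher and 34.1% lower, and the marker counts are to be read against these shares. Of the fibroblast markers, 1 was called higher and 8 lower among 10 tested, and their summed level ran from 11332 to 11914 CPM in WT and from 6974 to 7455 CPM in Yme1l-/- MEFs. WT culture 2 stood apart from the others of its genotype in matrix genes, with Col3a1 at 2858, 9860 and 2974 counts and Dcn at 52, 257 and 51 in the WT libraries. Thy1, a surface glycoprotein of many fibroblasts, had at most 6 counts in any WT library and 0 in Yme1l-/- MEFs. Of the 12 epithelial markers, 3 were tested and called lower, Krt19 and, through their WT libraries alone, Krt18 and Epcam, and the sum of the list ran from 142.0 to 159.6 CPM in WT and from 2.81 to 3.54 CPM in Yme1l-/- MEFs. Of 7 neural markers, 3 were tested and called lower, of which Nes made up most of the list's sum (341.8 to 354.1 CPM in WT and 97.7 to 101.7 CPM in Yme1l-/- MEFs) and Sox2, at 0 in Yme1l-/- MEFs, passed the filter through WT. The other 4 had at most 3 counts in every library. Endothelial markers (1.26 to 1.56 against 2.10 to 2.38 CPM), skeletal muscle markers (0.490 to 0.665 against 2.29 to 3.28 CPM) and immune markers (2.05 to 2.24 against 4.37 to 4.97 CPM) were low in both genotypes, and 1 gene of each list was tested and called higher. The part of these marker differences in the cadherin values was not tested.

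Classical cadherins bind the same cadherin on the next cell, and their tails recruit p120-catenin and beta-catenin, which connects through alpha-catenin to actin. Cells of epithelia typically carry E-cadherin, whereas fibroblasts typically carry N-cadherin and cadherin-11. Protocadherins adhere more weakly and are best known from neurons, where the clustered genes give each cell its own combination of surface proteins and the non-clustered genes guide axon and cell sorting.

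The set of cadherin and protocadherin genes in use differed between the genotypes. Cdh11, Cdh2, Pcdh18 and Pcdh1 rose, whereas Cdh13, Cdh18, Cdh23, Pcdh19, Pcdh9, Pcdh7 and all 7 tested loci of the protocadherin clusters fell. Of the 56 loci, 21 had enough counts to be tested and 17 of these were called, 4 higher and 13 lower. The share called among all 13867 loci tested was 67.7%, with 33.6% called higher and 34.1% called lower, so the number called says little by itself. A change of at least 2-fold was called at 14 members, 2 higher and 12 lower, where 17.7% of all loci tested had such a change in either direction. The genotypes did not overlap at 18 of the 21 members, against 71.9% of all loci tested. The median absolute log2 fold change was 2.05 over the members tested and 0.38 over all loci tested. The median log2 fold change was -1.64 and 0.00, respectively, and the members' medians were the same with Cdh13 and Pcdh7 set at their bounds.

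These counts and the members' medians carry a limit of the filter, which setting Cdh13 and Pcdh7 at their bounds does not remove. Of the 21 members tested, 13 had all 6 libraries over the filter's minimum of 0.291 CPM and 8 passed through their WT libraries, so that those 8 could be found lower more readily than higher. The 8 were Cdh13, Cdh17, Cdh18, Pcdh7, Pcdhb16, Pcdhb18, Pcdhb19 and Pcdhb20. The medians over the 21 members include these loci and so do not describe the 13 members with all 6 libraries over the minimum. Of the 35 members that were not tested, 26 had at most 3 counts in every library and 8 of these had 0 throughout. The other 9 are named with their counts in the paragraphs on their families.

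**Figure D1:**
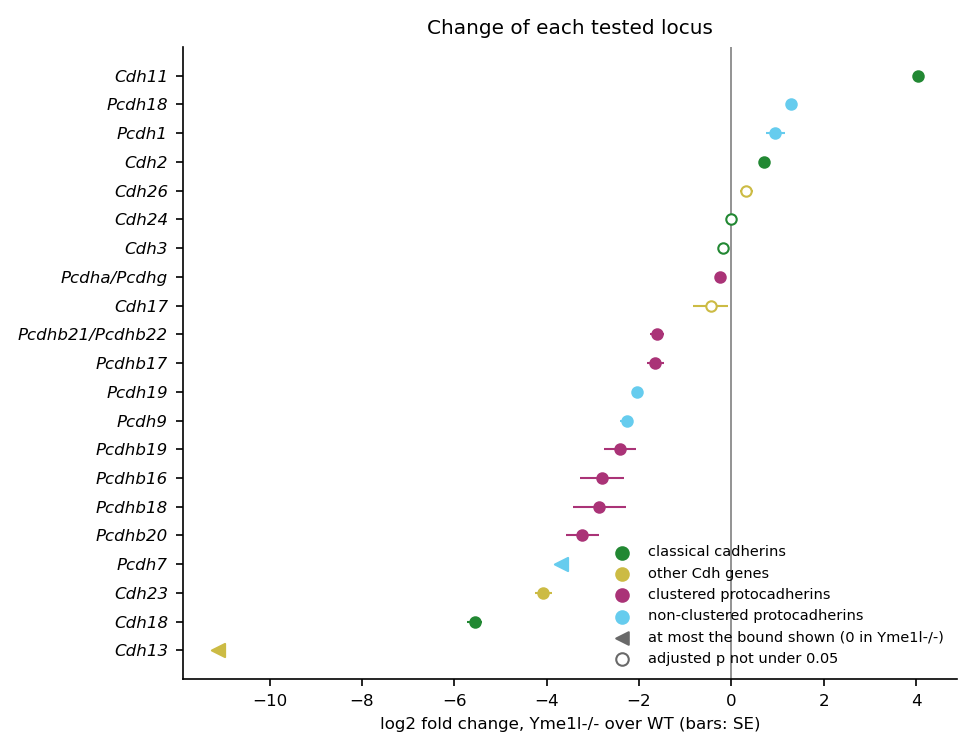
Log2 fold change of the 21 tested loci, Yme1l-/- over WT, on the horizontal axis, with bars for the standard error of the fit; colours give the family and open circles the loci that were not called. Cdh11 stands alone at 4.04, and the 2 triangles, Cdh13 and Pcdh7, mark loci without any count in Yme1l-/- MEFs, drawn at the bound that 3 counts allow.

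Among the type I classical cadherins, N-cadherin rose and P-cadherin did not pass the test. Cdh2, which encodes N-cadherin and lies on chromosome 18 from 16588877 to 16809246 of GRCm38, was at 83.1, 81.3 and 84.9 CPM in WT and at 146.2, 136.7 and 127.3 CPM in Yme1l-/- MEFs. All 3 Yme1l-/- cultures were above all WT cultures, a 1.64-fold rise (log2 fold change 0.72 ± 0.06 SE, adjusted p = 5.48e-07).

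Cdh3, the P-cadherin gene, was at 76.9, 63.1 and 79.5 CPM in WT and at 67.8, 63.1 and 62.9 CPM in Yme1l-/- MEFs, and the genotypes overlapped. Its log2 fold change was -0.18 ± 0.08, with a 95% interval of -0.34 to -0.02 and an adjusted p of 0.0669. Without WT culture 2, which had the lowest WT value, it was called lower (log2 fold change -0.28, adjusted p = 0.00151). With the median ratio of each chromosome removed, its sign turned, to 0.13 with an adjusted p of 0.139.

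E-cadherin was nearly absent in both genotypes: Cdh1 had 6, 4 and 12 counts in WT and 7, 2 and 3 in Yme1l-/- MEFs, too few to be tested. The genotypes overlapped there. Epcam, an epithelial adhesion gene, had 50, 42 and 35 counts in WT and 2, 5 and 5 in Yme1l-/- MEFs, and the epithelial regulators Grhl2 and Esrp1 had at most 1 count in any library. Cdh4, which encodes R-cadherin, had at most 3 counts in every library.

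Of the type II classical cadherins, 3 were tested: Cdh11 rose, Cdh18 fell and Cdh24 did not pass the test. Cdh11, which encodes cadherin-11 of mesenchymal and bone-forming cells and lies on chromosome 8 from 102632095 to 102785642, was at 2.02, 2.47 and 2.36 CPM in WT and at 37.8, 38.7 and 36.4 CPM in Yme1l-/- MEFs. This was a 16.5-fold rise (log2 fold change 4.04 ± 0.08, adjusted p = 2.22e-11). Within each genotype the cultures lay close together and the gap between the genotypes was far wider than either spread.

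Cdh18, a cadherin known mainly from brain, moved in the other direction. Its counts were 520, 489 and 479 in WT and 16, 14 and 13 in Yme1l-/- MEFs, or 15.1 ± 0.540 CPM and 0.330 ± 0.111 CPM (SD, n = 3 each). Having passed the filter through WT, it was 47.1-fold lower (log2 fold change -5.56 ± 0.16, adjusted p = 2.46e-10), and -6.16 with the median ratio of its chromosome removed, since the median locus of chromosome 15 rose by 0.59.

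Cdh24, a broadly expressed type II cadherin, was the same within its error, at 33.9 ± 3.33 CPM in WT and 33.8 ± 1.12 CPM in Yme1l-/- MEFs. The 95% interval of its log2 fold change ran from -0.14 to 0.14 (adjusted p = 0.999). Removing the chromosome medians brought it to 0.21 with an adjusted p of 0.0201, a call that no other setting gave. VE-cadherin of endothelium, Cdh5, had 0, 5 and 1 counts in WT and 2, 0 and 0 in Yme1l-/- MEFs. The remaining 9 type II genes, from Cdh6 to Cdh22, had at most 3 counts in every library.

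Summed over all 17 loci, classical cadherin RNA was 207.9 ± 13.5 CPM in WT and 273.3 ± 12.0 CPM in Yme1l-/- MEFs. Thus the fall of Cdh18 and the rise of Cdh11 went together with a higher, not a lower, total, and Cdh2 made up most of the difference.

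Of the other Cdh genes, 4 were tested and 2 were called, Cdh13 and Cdh23, both lower, where 67.7% of all loci tested were called. Cdh13 held 191.2 CPM of the summed 203.1 ± 9.31 CPM in WT, and the sum was 4.19 ± 0.40 CPM in Yme1l-/- MEFs. Cdh13 is the gene of T-cadherin, which has a lipid anchor in place of a cytoplasmic tail and binds adiponectin. Its counts were 6250, 6015 and 6567 in WT and 0 in each Yme1l-/- library, where a count of 0 allows at most 0.0857, 0.0595 and 0.0589 CPM. It passed the filter through WT alone and was at least 2231-fold lower (adjusted p = 5.39e-12), taking 3 counts in a library as the floor. The genes on either side of Cdh13, which spans 1041189 bases of chromosome 8, were present in all libraries: Mphosph6 had a log2 fold change of -0.46 ± 0.05 and Hsbp1 of -0.14 ± 0.05, where the chromosome's median was -0.32.

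Cdh23 encodes the cadherin that pairs with protocadherin-15 in the tip links of hair cells. It had 298, 260 and 290 counts in WT and 14, 21 and 35 in Yme1l-/- MEFs, a log2 fold change of -4.07 ± 0.19 (adjusted p = 7.81e-09). Its partner Pcdh15 had at most 3 counts in every library. Vsir, an immune checkpoint gene that lies inside Cdh23 on the opposite strand, went the other way, from 3, 5 and 8 counts to 97, 157 and 155 (log2 fold change 4.17 ± 0.27, adjusted p = 1.24e-07). Whether the counting used strand is not given in the sources used here, so reads of the shared stretch cannot be assigned with certainty. Psap, just before Cdh23, and Slc29a3, just after it, were higher in Yme1l-/- MEFs, by 0.35 ± 0.05 and 1.01 ± 0.06 on the log2 scale.

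Cdh26, a cadherin known from epithelia, was at 2.60, 2.38 and 2.42 CPM in WT and at 3.14, 2.70 and 3.43 CPM in Yme1l-/- MEFs. The genotypes did not overlap, yet the test was missed (log2 fold change 0.32 ± 0.15, 95% interval 0.04 to 0.61, adjusted p = 0.0699). Without Yme1l-/- culture 2 it was called higher (0.42, adjusted p = 0.0472). Cdh17, the liver-intestine cadherin, had 26, 26 and 25 counts in WT and 32, 31 and 13 in Yme1l-/- MEFs, with an interval for the log2 fold change of -1.20 to 0.31 (adjusted p = 0.325). Kidney cadherin, Cdh16, had 0 counts throughout.

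**Figure D2:**
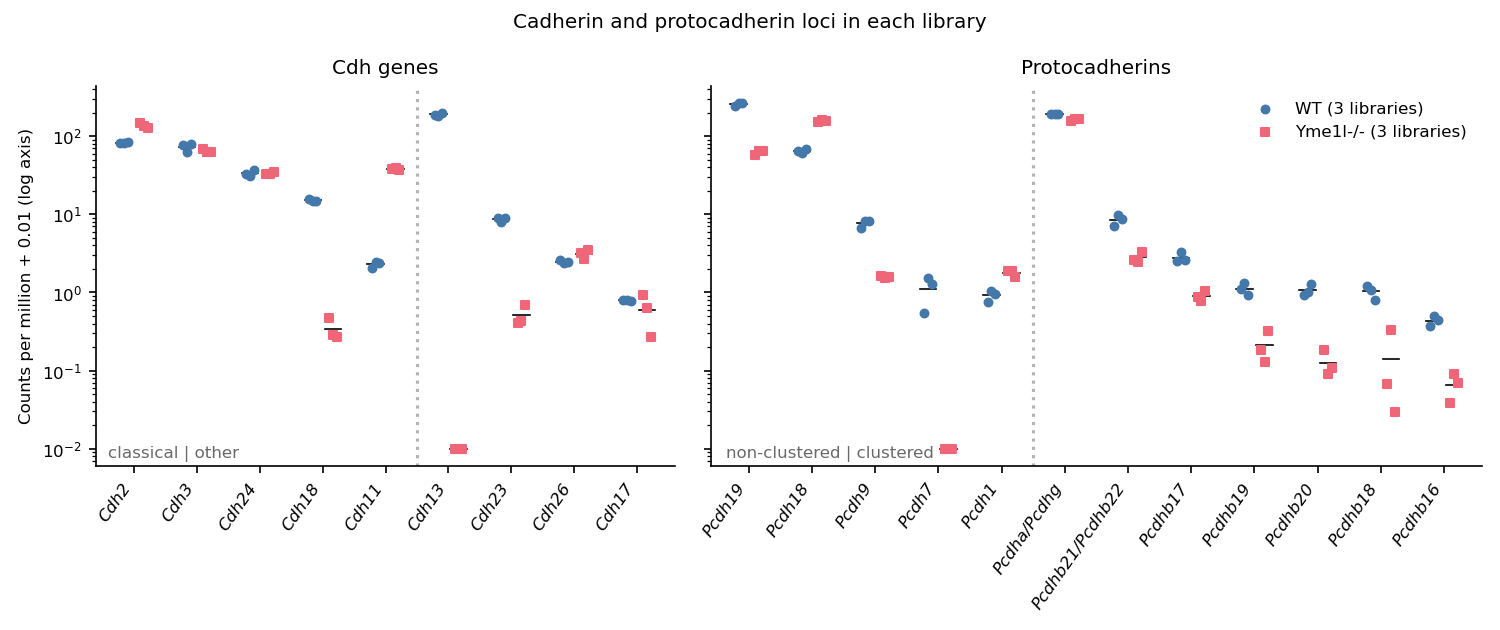
CPM plus 0.01, on a log axis, in each of the 3 WT libraries (circles) and 3 Yme1l-/- libraries (squares) for the 21 tested loci, with a short line at each mean; dotted lines part classical from other Cdh genes and non-clustered from clustered protocadherins. Cdh11 climbed from about 2.29 to 37.6 CPM while Cdh13 and Pcdh7 dropped to the bottom of the axis.

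The authors' FPKM values, which divide by transcript length and hold 1 combined value per genotype without an error, allow levels to be compared between genes. In WT MEFs Cdh13 led with 73.8 FPKM, or 55.4% of the sum over all Cdh genes, ahead of Cdh2 with 15.3%, Cdh3 with 12.6%, Cdh24 with 7.41% and Cdh18 with 4.46%. Cdh11 held 0.407% and ranked below Cdh26. In Yme1l-/- MEFs the sum was lower, 68.1 against 133.2 FPKM, and Cdh2 led with 49.4%. It was followed by Cdh3 with 21.8%, Cdh24 with 14.5% and Cdh11 with 10.9%, while Cdh18 held 0.227%. Thus the cadherin with the highest level per length was the tail-less T-cadherin in WT and N-cadherin in Yme1l-/- MEFs.

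**Figure D3:**
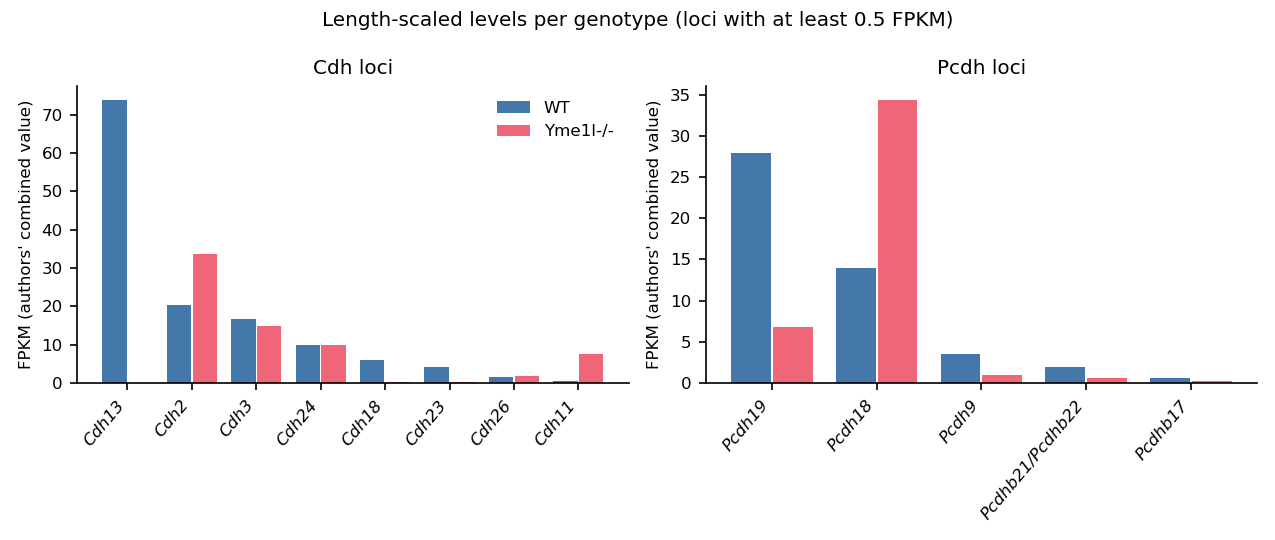
Level per transcript length (FPKM, the authors' combined value of each genotype) of the Cdh loci on the left and the Pcdh loci on the right, for loci with at least 0.5 FPKM in a genotype and without the merged Pcdha/Pcdhg locus. Cdh13 falls from 73.8 to 0 and Cdh2 rises from 20.4 to 33.6, and Pcdh19 and Pcdh18 change rank.

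Among the non-clustered protocadherins, all 5 tested loci were called, 2 higher and 3 lower, where 67.7% of all loci tested were called, and Pcdh7 passed the filter through WT alone. The leading pair, Pcdh19 and Pcdh18, changed rank. Both belong to the delta protocadherins, whose long tails can bind the WAVE complex of actin assembly. Pcdh19, an X-linked gene known for a form of epilepsy with intellectual disability, was at 246.5, 263.6 and 264.3 CPM in WT and at 57.0, 65.2 and 64.9 CPM in Yme1l-/- MEFs. It fell to 24.2% of the WT level (log2 fold change -2.05 ± 0.06, adjusted p = 2.24e-10). Pcdh18, in contrast, was at 64.9, 60.4 and 67.9 CPM in WT and at 150.8, 161.8 and 158.9 CPM in Yme1l-/- MEFs, 2.44-fold higher (log2 fold change 1.29 ± 0.05, adjusted p = 4.16e-09). For neither gene did the genotypes overlap.

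Pcdh9, a delta protocadherin of cortical neurons, fell from 6.59, 8.16 and 8.15 CPM to 1.63, 1.53 and 1.59 CPM (log2 fold change -2.27 ± 0.13, adjusted p = 6.29e-08). Pcdh7, also called BH-protocadherin, had 18, 50 and 41 counts in WT and 0 in each Yme1l-/- library, at least 12.9-fold lower (adjusted p = 5.32e-05). WT culture 1 held the fewest Pcdh7 counts and was still above all Yme1l-/- cultures. Pcdh1, known from airway epithelium, was low in both genotypes but higher in Yme1l-/- MEFs, at 66, 94 and 80 counts against 25, 34 and 31 (log2 fold change 0.95 ± 0.20, adjusted p = 0.00145).

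Of the non-clustered genes below the filter, Pcdh17 had 6, 5 and 8 counts in WT and 1, 0 and 1 in Yme1l-/- MEFs, and Pcdh20 had 6, 5 and 3 against 0 throughout. Pcdh10 had 4, 0 and 4 counts in WT and 0 in Yme1l-/- MEFs. No test is given for these in the main analysis. Without the filter all 3 were called lower, whereas DESeq2 over the same 23035 loci called Pcdh17 and Pcdh20 and not Pcdh10. The other 4 genes, Pcdh8, Pcdh11x, Pcdh12 and Pcdh15, had at most 3 counts in every library. Summed over the 12 loci, non-clustered protocadherin RNA fell from 332.7 ± 11.8 CPM to 67.0% of that level. By FPKM and without the merged Pcdha/Pcdhg locus, Pcdh19 held 56.4% of all protocadherin signal in WT and 15.5% in Yme1l-/- MEFs, whereas Pcdh18 held 28.1% and 78.8%.

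RefSeq promoter windows of GRCm38.p6, from 250 bases before to 50 after a gene's start, were found for 21 member genes, 8 of them tested. The windows below are those of the leading pair that changed rank, Pcdh18 (chr3:49757267-49757566, minus strand) and Pcdh19 (chrX:133688944-133689243, minus strand), and of genes with few or no counts left in Yme1l-/- MEFs, Pcdh7 (chr5:57717831-57718130, plus strand) and Cdh18 (chr15:23036213-23036512, plus strand). They are shown because CG dinucleotides, the sites of promoter DNA methylation, can be read from them, and capitals mark every CG.
Pcdh18: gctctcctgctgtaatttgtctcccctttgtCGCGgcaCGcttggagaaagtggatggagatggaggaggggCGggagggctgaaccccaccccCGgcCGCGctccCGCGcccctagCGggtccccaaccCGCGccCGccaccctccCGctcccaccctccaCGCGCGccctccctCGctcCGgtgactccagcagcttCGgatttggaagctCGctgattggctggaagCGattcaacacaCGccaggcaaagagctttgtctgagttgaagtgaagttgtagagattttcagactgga
Pcdh19: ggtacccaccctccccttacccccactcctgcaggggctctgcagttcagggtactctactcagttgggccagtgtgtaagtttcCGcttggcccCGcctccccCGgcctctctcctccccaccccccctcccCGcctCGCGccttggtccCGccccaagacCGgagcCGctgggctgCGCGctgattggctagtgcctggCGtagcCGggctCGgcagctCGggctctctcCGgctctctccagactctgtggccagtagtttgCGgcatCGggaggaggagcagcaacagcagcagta
Pcdh7: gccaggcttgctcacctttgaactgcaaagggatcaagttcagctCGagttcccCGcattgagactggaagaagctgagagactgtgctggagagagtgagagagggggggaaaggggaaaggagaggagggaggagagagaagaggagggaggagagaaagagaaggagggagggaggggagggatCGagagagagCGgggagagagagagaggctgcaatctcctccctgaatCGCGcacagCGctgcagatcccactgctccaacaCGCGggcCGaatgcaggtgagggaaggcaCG
Cdh18: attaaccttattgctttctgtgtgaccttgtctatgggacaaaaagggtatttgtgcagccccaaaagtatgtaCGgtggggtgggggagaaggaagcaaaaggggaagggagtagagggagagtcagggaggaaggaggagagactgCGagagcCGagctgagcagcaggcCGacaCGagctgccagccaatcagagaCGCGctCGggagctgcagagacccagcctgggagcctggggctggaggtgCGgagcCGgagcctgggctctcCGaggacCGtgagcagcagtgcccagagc

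Pcdh18 has 23 CG in its window, Pcdh19 has 18, Cdh18 has 12 and Pcdh7 has 11, where the median over all 32851 promoter windows is 7 and the quartiles are 3 and 20. Of the other tested members with a window, Cdh24, which was not called, has 30 and Cdh26, also not called, has 4. Among those that fell, Pcdh9 has 18 and 19 at its annotated starts and Cdh23 has 5. Pcdh18 was the only tested member with a window that was called higher, and a link between CG count and direction was not tested. The CCAAT box, read on both strands, is in 16 of the 24 member windows, among them those of Pcdh18, Pcdh19 and Cdh18, and in 37.4% of all windows. The 24 windows belong to 21 genes, since Cdh7 and Pcdh9 have several, and most of these genes were not tested. The GC box GGGCGG, read on both strands, is in 8 of the 24 member windows and in 35.7% of all windows. It is in the windows of Pcdh18 and Pcdh19 and not in those of Pcdh7 and Cdh18. The E-box CACCTG, which zinc-finger repressors of E-cadherin can bind, is in 5 of the 24 member windows and in 20.2% of all windows. Among the printed windows that of Pcdh7 alone holds it. None of the printed windows has TATAAA on either strand, which 2 of the 24 member windows and 13.6% of all windows hold. Methylation was not measured in this series. The RefSeq start of Cdh18 lies inside the longer GENCODE gene, which begins at 22549022, so other starts of that gene are not shown.

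The clustered protocadherins lie side by side on chromosome 18 in 3 groups. Each Pcdha and Pcdhg transcript joins a variable exon to constant exons that its group shares, whereas each Pcdhb gene has its own complete coding exon. The table merges Pcdha and Pcdhg but keeps most Pcdhb genes apart, so which Pcdha or Pcdhg genes the cells used cannot be read from it. The merged Pcdha/Pcdhg locus was at 191.8, 193.0 and 194.2 CPM in WT and at 157.2, 166.3 and 164.9 CPM in Yme1l-/- MEFs. Its fall was small but larger than the spread (log2 fold change -0.25 ± 0.04, adjusted p = 0.000233). The median locus of chromosome 18 was at -0.21, and with the chromosome medians removed the merged locus was at -0.02 with an adjusted p of 0.646, which ended the call.

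Of the 21 Pcdhb loci, 6 were tested and called lower, where 34.1% of all loci tested were called lower, and 4 of the 6 passed the filter through WT alone. They were the last 6 along the cluster. Over all 21 loci, the summed level was 16.2 ± 2.11 CPM in WT and 4.73 ± 0.588 CPM in Yme1l-/- MEFs, 29.3% of the WT value. A higher mean in Yme1l-/- MEFs was found at 3 scarce, untested loci. Pcdhb21/Pcdhb22, the most abundant, had 7.16, 9.87 and 8.64 CPM in WT and 2.63, 2.46 and 3.32 CPM in Yme1l-/- MEFs (log2 fold change -1.61 ± 0.16, adjusted p = 3.36e-06). Pcdhb17 had 2.51, 3.24 and 2.57 CPM against 0.857, 0.773 and 1.02 CPM (-1.64 ± 0.19, adjusted p = 1.52e-05). The genotypes were apart at both loci.

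The other tested genes of the cluster, Pcdhb16, Pcdhb18, Pcdhb19 and Pcdhb20, were scarcer and passed the filter through their WT libraries, as loci without 3 Yme1l-/- libraries over its minimum. Pcdhb20 had a log2 fold change of -3.23 ± 0.35, Pcdhb16 of -2.80 ± 0.47 and Pcdhb19 of -2.42 ± 0.35, with adjusted p values of 9.12e-06, 0.000264 and 8.73e-05. Pcdhb18 stood at 1.21, 1.07 and 0.796 CPM in WT and at 0.0572, 0.317 and 0.0196 CPM in Yme1l-/- MEFs (-2.86 ± 0.57, adjusted p = 0.00125). Its size rested on Yme1l-/- culture 2, without which it was at -4.74.

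Pcdhb1 to Pcdhb15, the first 15 loci of the cluster, had too few counts to be tested, with 35, 48 and 37 counts summed in WT and 21, 23 and 29 in Yme1l-/- MEFs. The last 6 loci held 438, 556 and 478 counts in WT and 137, 193 and 246 in Yme1l-/- MEFs. Thus the counts of the cluster came mostly from its end that lies nearer to Pcdhg, in each of the 6 libraries. Of the untested genes, Pcdhb5 had 45 counts over the WT libraries and 12 over the Yme1l-/- libraries, and Pcdhb9 had 19 and 5. Both were called lower without the filter, and DESeq2 called Pcdhb5 but not Pcdhb9. Pcdhb14 had 15 and 20 counts and Pcdhb7 had 14 and 16. As mean CPM these were 0.152 in each genotype for Pcdhb14, and 0.142 in WT and 0.123 in Yme1l-/- MEFs for Pcdhb7. The remaining 11 loci had at most 3 counts in every library. Pcdhb genes are close paralogs, so reads could be split among them in the authors' counting.

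**Figure D4:**
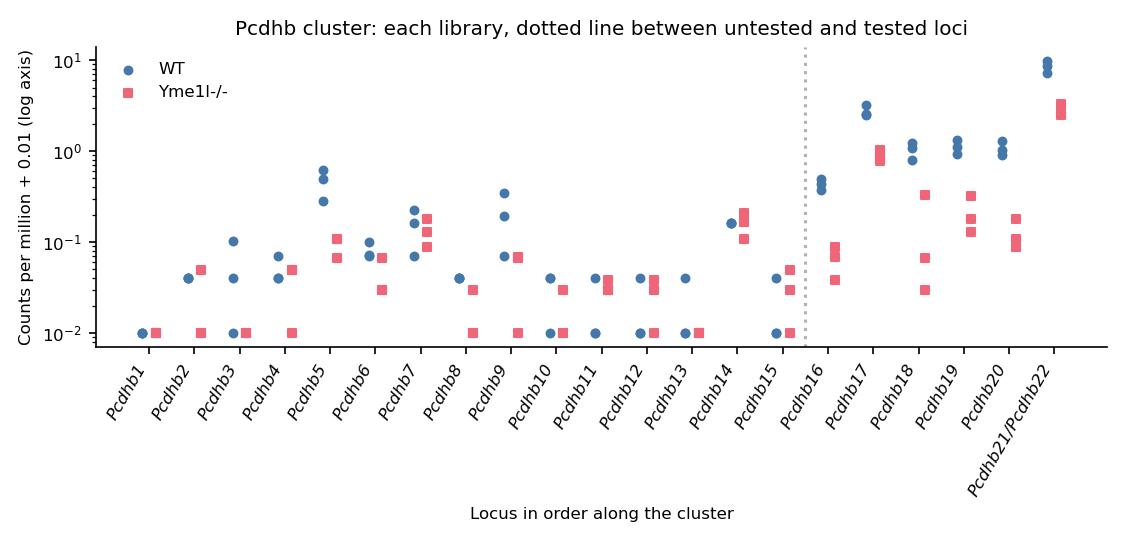
CPM plus 0.01, on a log axis, of the 21 Pcdhb loci in their order along the cluster, with circles for the 3 WT and squares for the 3 Yme1l-/- libraries. Loci left of the dotted line were too scarce to be tested, and all 6 loci on its right are lower in every Yme1l-/- library.

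Catenins link cadherins to actin, and nectins are adhesion proteins that sit beside them in junctions. Of 16 tested catenins and junction partners, 5 were called higher and 8 lower, with a median absolute log2 fold change of 0.73. Of all loci tested, 67.7% were called, 33.6% higher and 34.1% lower, and the counts of each list below are to be read against these shares. Ctnnb1, which encodes beta-catenin, and Ctnna1, which encodes the alpha-catenin of most tissues, both fell. Their log2 fold changes were -0.69 ± 0.05 (adjusted p = 1.68e-07) and -0.70 ± 0.04 (adjusted p = 9.67e-08). With the chromosome medians removed they were at -0.33 and -0.48, both still called lower. The locus of Ctnnd1, the p120-catenin gene, is merged with Tmx2 and was at -0.07 ± 0.05 (adjusted p = 0.217). Ctnna2, the alpha-catenin of neurons, went from 2, 1 and 0 counts in WT to 184, 257 and 267 in Yme1l-/- MEFs (adjusted p = 5.74e-09), and passed the filter through Yme1l-/- libraries alone. Ablim1, an actin-binding LIM protein, and Nectin2, an immunoglobulin-type adhesion protein, rose by 3.77 ± 0.07 and 1.46 ± 0.05 on the log2 scale. Nectin3, which pairs with other nectins, fell by 2.37 ± 0.06 and Nectin1 by 1.63 ± 0.07, while Plekha7, which ties p120-catenin to microtubules, fell by 1.23 ± 0.14.

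Of the other genes of the cadherin superfamily, 12 of 12 tested loci were called lower, with a median log2 fold change of -1.19, where 34.1% of all loci tested were called lower. The count was 11 of 12 under upper-quartile scaling and without WT culture 3, 11 of 13 without Yme1l-/- culture 2 or 3, and 11 of 11 over loci with a single symbol. Of these 12 loci, 8 had all 6 libraries over the filter's minimum and 4, among them Dsc2, Cdhr1 and Clstn3, passed through WT libraries, with fewer than 3 Yme1l-/- libraries over it. Dsc2, a desmosomal cadherin, had 11, 24 and 19 counts in WT and 0 in each Yme1l-/- library, at least 6.41-fold lower (adjusted p = 8.79e-05). Cdhr1, a cadherin of photoreceptors, and Clstn3, a synaptic calsyntenin, had log2 fold changes of -3.72 ± 0.39 and -3.63 ± 0.36. The smallest of these falls were those of Clstn1 (-0.58 ± 0.05), of the planar polarity gene Celsr1 (-0.43 ± 0.16, adjusted p = 0.0338) and of the locus that merges Cdhr4 with Ip6k1 and Uba7, which are no cadherins (-0.41 ± 0.04), whose call was lost with the chromosome medians removed (-0.05, adjusted p = 0.336). Of the remaining 15 loci, 12 had at most 3 counts in every library.

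Repressors of E-cadherin transcription did not move in 1 direction: 3 of 9 tested were called higher and 5 lower, against 33.6% and 34.1% of all loci. Twist1 and Tcf4, basic helix-loop-helix factors, fell by 1.88 ± 0.08 and 1.84 ± 0.09 on the log2 scale, and Snai1 fell by 0.38 ± 0.10. Its relative Snai2 was 0.34 ± 0.08 higher (adjusted p = 0.00354). Gsc, a homeobox factor, went from 0, 0 and 1 counts to 14, 19 and 15 (adjusted p = 0.000197), and passed the filter through Yme1l-/- libraries alone. Tcf3 was 0.13 ± 0.05 higher, a call that reversed with the chromosome medians removed (-0.17, adjusted p = 0.00721). As given above, Cdh1 had 12 counts or fewer in every library of either genotype.

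Of 20 regulators linked to the clustered protocadherin loci, which include CTCF, cohesin and DNA methyltransferases, 5 were called higher and 12 lower, against 33.6% and 34.1% of all loci, and no change reached 2-fold. Dnmt3b, a DNA methyltransferase, was 0.83 ± 0.12 higher (adjusted p = 0.000117), whereas its relative Dnmt3a fell by 0.70 ± 0.09 (adjusted p = 3.74e-05). Removing the chromosome medians brought Dnmt3a to -0.26 (adjusted p = 0.0260) and left Dnmt3b at 0.84. The cohesin subunit gene Stag1 fell by 0.90 ± 0.05, and Smchd1, a silencing factor of the clusters, fell by 0.55 ± 0.06. In the same setting Stag1 was at -0.54 and Smchd1 at -0.71, both still called lower. The cohesin loader Nipbl (0.48 ± 0.12) and the cohesin subunit gene Rad21 (0.30 ± 0.05) were higher. With the chromosome medians removed Nipbl lost its call (-0.13, adjusted p = 0.402) and the call of Rad21 reversed (-0.31, adjusted p = 0.000231). Ctcf was at -0.39 ± 0.05 (adjusted p = 1.47e-05), and at -0.07 with an adjusted p of 0.208 with those medians removed.

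Proteases that process cadherins were lower where they were called, 9 of 11 tested, against 34.1% of all loci. Mmp14, a membrane-bound metalloproteinase, and Adam17, a sheddase, fell by 1.37 ± 0.04 and 0.95 ± 0.04 on the log2 scale. With the chromosome medians removed they were at -1.16 and -0.50, both still called lower. The matrix protease Mmp3 went from 42, 78 and 79 counts to 0, 3 and 1 (adjusted p = 1.35e-06), and passed the filter through WT alone. Of 12 tested genes of the WAVE complex and of kinases linked to protocadherins, 5 were called higher and 6 lower, against 33.6% and 34.1% of all loci, and Abi3 and Wasf3 passed the filter through a single genotype. Wasf3, a WAVE subunit gene, went from 237, 208 and 236 counts to 0 in each Yme1l-/- library, at least 80.6-fold lower, while Wasf2, the form found in most cells, fell by 0.59 ± 0.04. Ptk2b, a focal adhesion type kinase, fell by 2.57 ± 0.15. Its relative Ptk2 was 0.53 ± 0.05 higher, and at -0.07 with an adjusted p of 0.184 with the chromosome medians removed. Brk1, the smallest WAVE subunit, was 0.66 ± 0.05 higher, and 0.31 higher with those medians removed, where it was still called. Abi3 went from 0, 3 and 2 counts to 32, 45 and 76.

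**Figure D5:**
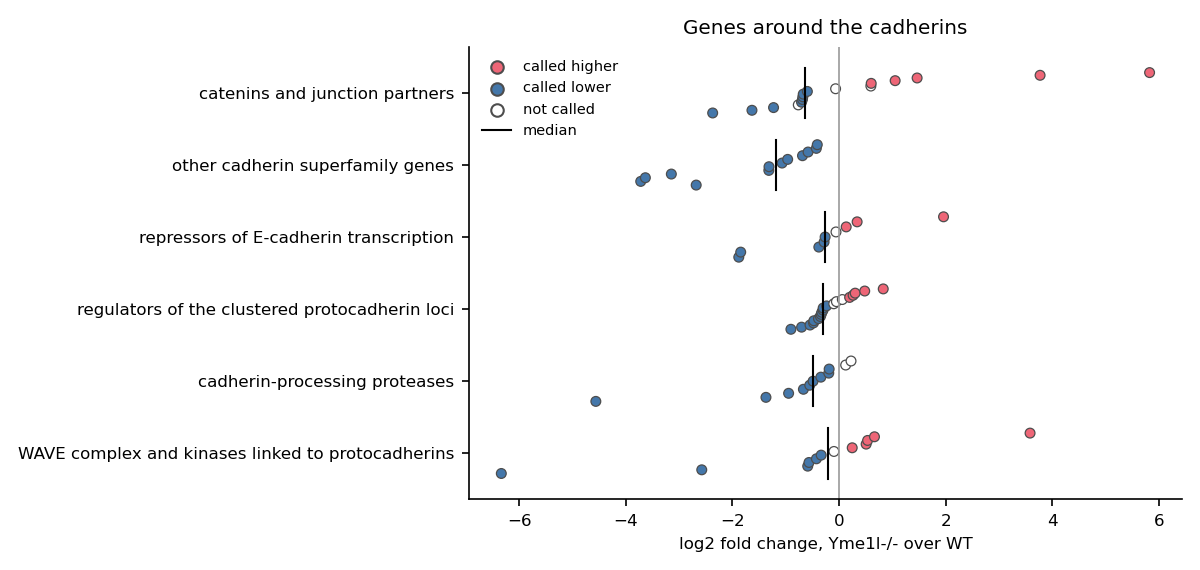
Log2 fold change, Yme1l-/- over WT, of each tested locus in 6 lists of genes around the cadherins, coloured by call, with a vertical line at each list's median; loci with at most 3 counts in every library of a genotype are drawn against 3 counts. The 12 tested loci of the other cadherin superfamily genes lie below 0, with a median of -1.19, and 4 of them passed the filter through WT libraries; the other lists hold loci on both sides.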

How the data were processed

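Per the labels, stranded poly(A) libraries were sequenced from 3 WT and 3 Yme1l-/- cultures. The submitters' processing notes name HISAT2 2.0.4, StringTie 1.3.3, Cufflinks and Cuffdiff 2.2.1 with GRCm38. The authors deposited raw counts per locus and library, and an FPKM value per locus and genotype that combines the cultures. Columns of the authors' own comparison (fold changes and p-values) were not used. Positions are of GENCODE M21.

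Counts were fitted in edgeR 4.0.16 (R 4.3.3) over all loci that passed filterByExpr (minimum count 10), with TMM scaling, the robust quasi-likelihood test, two-sided, and Benjamini-Hochberg adjustment over 13867 loci. The study's Cufflinks test cannot be run on counts. Counts of at most 3 in a library were taken as the floor, which covers counting error only, and CPM use TMM-scaled totals. Intervals of 95% are normal ones from the estimate and its SE. FPKM were used as levels and shares, with no test. The fit was tested on simulated data. DESeq2 1.42.0, other scalings and filters, the replicate number as a block, thinning, chromosome medians and leaving out each culture were tried.

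The members and lists were chosen with earlier results of these data known. Tested members are named with values, and untested members with counts where a library had over 3 counts, beside Cdh1, Cdh2 and Cdh5; the rest are accounted for. Of each list, the 3 called loci that rose most (or fell least) and the 3 that fell most are named, beside Ctnnb1, Ctnnd1, Ctnna1 and Ctcf. Marker genes and genes next to a member are named as checks, and the neighbours and promoters shown were chosen after the values were seen.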

Additional observations from a re-analysis of the deposited data

How the results depend on the processing

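Of 300 recomputed counts of calls per family or list, 288 stayed within 1.5 times the reported count. Classical cadherins called lower numbered 2 in place of 1, with Cdh3 added, without the filter on low counts, with the replicate block and without WT culture 2 (range 1 to 2 over the cultures left out). Other Cdh genes called higher numbered 1 in place of 0, with Cdh26 added, under upper-quartile scaling, after thinning to the smallest library and without Yme1l-/- culture 2 (range 0 to 1). With at least 10 counts required in every sample, fewer loci were tested, and other Cdh genes called lower numbered 1 in place of 2 and clustered protocadherins called lower 3 in place of 7. Non-clustered protocadherins called lower numbered 5 in DESeq2 and 6 without the filter, in place of 3, since more loci were tested. Regulators of the clustered loci called higher numbered 2 in place of 5 with the chromosome medians removed, and proteases called higher 1 in place of 0 with the replicate block; the cause was not tested.

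Cdh24, at 0.00, turned positive under upper-quartile scaling (0.059), the stricter filter (0.00097), the replicate block (0.0027), single-symbol loci (0.0012), thinning (0.0089) and the chromosome medians (0.21), and without WT culture 3 (0.076), Yme1l-/- culture 1 (0.013) or 2 (0.017), with a range over the cultures left out of -0.066 to 0.076. Cdh3 turned to 0.13 with the chromosome medians removed. Cdh3 was called at -0.19 without the filter and at -0.17 with the block, and Cdh26 at 0.38 under upper-quartile scaling and 0.36 after thinning. Of the other members, the merged Pcdha/Pcdhg locus alone lost its call, with the chromosome medians removed. Upper-quartile scaling moved the median over all loci to 0.06 and the share of calls that were higher from 49.6% to 55.1%. Thinning and leaving out cultures kept Cdh13 and Pcdh7 lower wherever they were tested; the strict filter left both out.

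Deviations of same-numbered cultures correlated at 0.14, -0.09 and 0.05, which cannot settle whether the numbers pair the cultures. The replicate block called 9794 loci in place of 9387. Leaving out cultures left 8847 to 9406 calls. The 35 untested members had too few counts in these libraries to be tested.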
